A study of Mus musculus with 20 samples.

Results

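Bile acid synthesis and conjugation were followed through 9 enzyme genes, chosen by name for their place in the pathway: Cyp7a1, Cyp8b1, Cyp27a1, Cyp7b1, Hsd3b7, Akr1d1, Amacr, Slc27a5 and Baat. What was measured was H3K27ac, the acetylated lysine 27 of histone H3 that marks promoters and enhancers in use, by chromatin immunoprecipitation and sequencing. For each gene, every called H3K27ac region that overlapped its RefSeq span in the mouse build mm10, extended by 5 kb on both sides, was taken as part of the gene's window. Per library, the scaled tags of those regions (sequenced fragments assigned to a region, brought by the authors to a common depth of 10000000) and their called length were summed, and their ratio gave tags per kb. These are 9 of 21887 protein-coding genes, and all 9 belong to the 9703 genes whose window held a region in every library. After merging the lists of all libraries, the 9 windows touched 39 of 46767 regions, and 12 of those 39 were called in every library, as were 12550 regions genome-wide.

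The cells were hepatocytes, which make up most of the liver's mass, obtained by perfusion of livers from old mice (23 months, C57BL/6J) and from young mice (5 months, C57BL/6N). Each age had 5 H3K27ac libraries, and the labels name no transgene, deletion or drug in either. A further 10 samples are inputs, which entered only through the input value that the authors deposited with each region. Age and substrain coincide, so the effects of age and of substrain cannot be told apart in any comparison of old with young hepatocytes. Whether every library stems from a mouse of its own is not stated, so a p-value here reflects only the spread among these samples, some of which may be technical. A spike-in of human chromatin was part of the protocol, but no value scaled to it was used here, and total acetylation was therefore not compared.

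Hepatocytes make bile acids from cholesterol. Cyp7a1 opens the classic route and is its rate-limiting enzyme, whereas Cyp27a1 and Cyp7b1 act in the alternative route through oxidised side-chain sterols. Cyp8b1 directs intermediates towards cholic acid, Hsd3b7 and Akr1d1 alter the sterol rings, Amacr prepares the side chain for shortening, and Slc27a5 and Baat join the finished acid to an amino acid. The bile acid receptor FXR (Nr1h4) and its target SHP (Nr0b2) are known for feedback repression of the first enzymes.

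Library size was 6295930 to 9847344 tags in old hepatocytes and 7341342 to 15544145 tags in young hepatocytes. The share of tags inside called regions (IP efficiency) was 24.53% to 35.84% in old and 34.63% to 48.23% in young hepatocytes. In the scaled tags as deposited, the median of all windows lay 0.34 log2 units lower in old hepatocytes, so each library was centred on its median window and log2 differences, old minus young, are relative to that. Old replicate 5 had the fewest tags and the lowest IP efficiency, and young replicate 5 had the most tags and the longest estimated fragments (620 bp, against 414 to 444 bp in the other libraries). All 8 hepatocyte markers (Alb, Apoa1, Ttr, Hnf4a, Cps1, Serpina1a, Asgr1 and Tat) held regions in all 10 libraries, with summed tags of 4274 to 6884 in old and 7514 to 10157 in young hepatocytes. Many markers of other liver cells had no called region. These were 5 of 7 Kupffer and myeloid markers (Clec4f, Vsig4, Cd5l, Adgre1 and Lyz2), 5 of 6 stellate markers, 4 of 6 cholangiocyte markers, 3 of 5 lymphocyte markers and 2 of 6 endothelial markers. Single genes held more, with a mean of 233 scaled tags in old and 256 in young at endothelial Stab2. Cholangiocyte Sox9 had 320 in old and 355 in young, against 212 in old and 351 in young at Alb. Summed tags were 0 to 65.4 in old and 39.2 to 106 in young hepatocytes for the myeloid list, and 44.5 to 103 in old and 0 to 144 in young for the stellate list. The cholangiocyte list held 222 to 520.1 tags in old and 253 to 580.4 in young, the lymphocyte list 415 to 601 in old and 369.7 to 760.1 in young, and the endothelial list 125 to 452 in old and 252 to 377 in young. Fewer acetylated cells and less acetylation per cell cannot be told apart in such bulk libraries.

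H3K27ac tags at the bile acid genes were lower on average in old hepatocytes for 8 of the 9 genes, but no gene window passed the test on its own. In limma with Benjamini-Hochberg adjustment over all windows, 0 of 9 members were called at 0.05, where 0.216% of all windows were called (21 of 9703, 12 higher and 9 lower in old). Without centring the calls over all windows were 2 higher and 85 lower. By unadjusted limma p under 0.05, 4 of the 9 members passed, Cyp7a1, Cyp27a1, Cyp7b1 and Baat, each lower in old, against 7.12% of all windows lower by the same rule. The median log2 difference of the 9 members was -0.53, against 0.00 over all windows, of which 49.6% were lower in old. Hsd3b7 alone was higher on average, and Slc27a5 (-0.05) and Akr1d1 (-0.06) lay close to 0. The hepatocyte markers had a median log2 difference of -0.39, with 8 of 8 lower. Of these, 5 had an unadjusted limma p under 0.05 (7.12% of all windows, lower in old) and none passed after adjustment. Among these markers edgeR called 0 and DESeq2 called 1, Cps1, lower in old. Of all windows, edgeR called 0.206% lower and DESeq2 1.58%. What part this wider difference at hepatocyte genes has in the members' values was not tested. Over 23 alternative settings, 5 to 8 members were lower and their median ran between -0.87 and -0.34; the lowest count, 5, came with regions of at least 8-fold over input, where 5 members could be tested. Without centring, with cyclic loess, in edgeR and in DESeq2, 8 members were lower in each. With the libraries' IP efficiency as a covariate, 7 were lower, the median was -0.34, and Akr1d1 was on the higher side at 0.28.

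**Figure D1:**
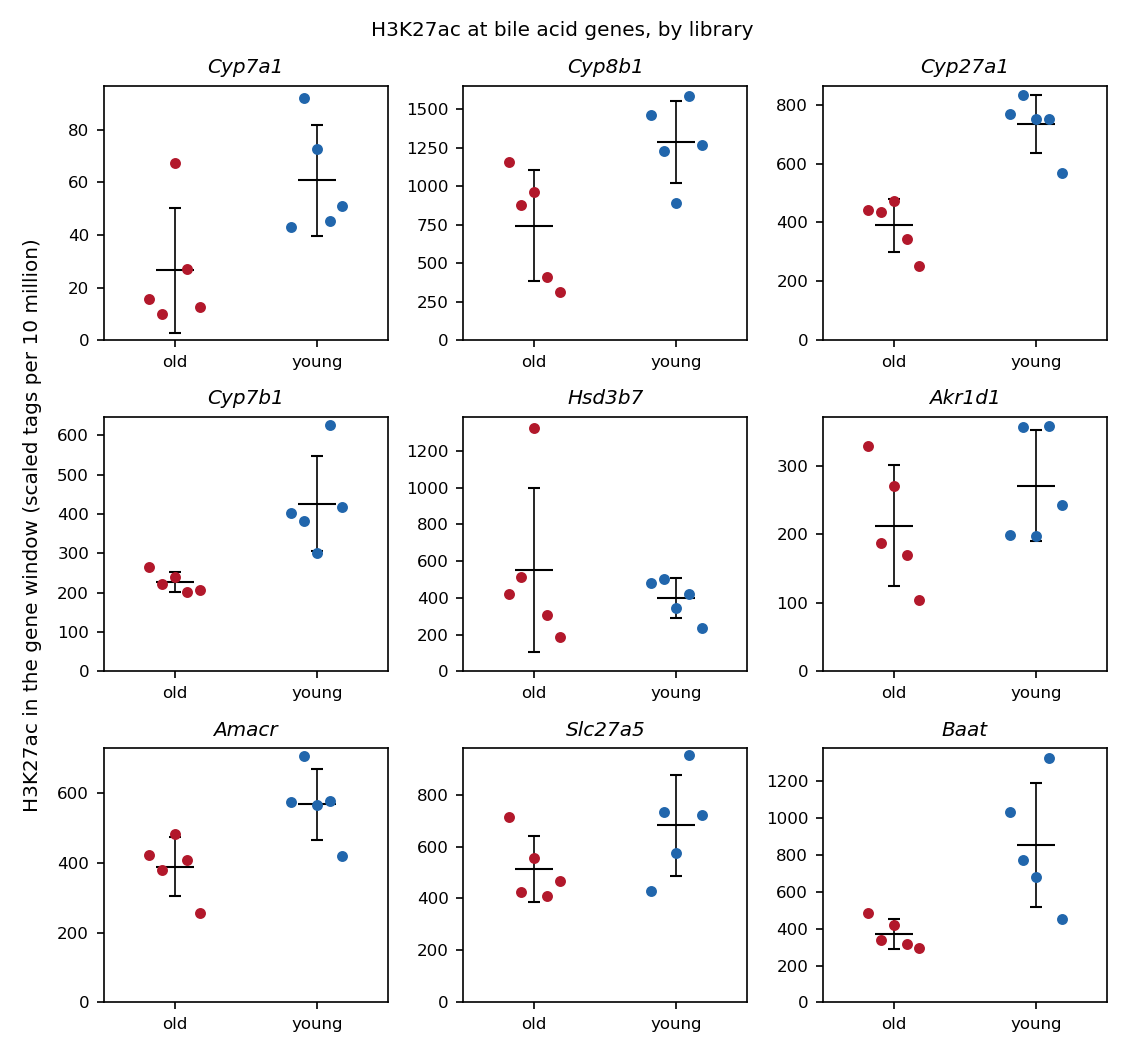
Summed scaled H3K27ac tags in the window of each of the 9 genes, in old (red) and young (blue) hepatocytes; points are libraries, long bars are means and whiskers are 1 SD (n = 5 each). Old and young points do not overlap for Cyp27a1 (253 to 474 against 569 to 834 tags) and Cyp7b1 (203 to 265 against 301 to 626 tags). The same separation, lower in old, was seen at 9.23% of all windows. Old replicate 3 stands alone at Hsd3b7 with 1324 tags.

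Cyp27a1, the mitochondrial sterol side-chain hydroxylase of the alternative route, gave the clearest difference. Its span lies at chr1:74713148-74737897 in mm10. The old libraries 1 to 5 held 444, 437, 474, 344 and 253 scaled tags in the window, and the young libraries 769.5, 834, 749.9, 752 and 569. Every old library was below every young one in the deposited scaled tags, a separation seen at 9.23% of all windows in that direction. After centring the libraries still did not overlap, and Cyp27a1 was the only member for which this held, against 1.91% of all windows. The log2 difference was -0.59 ± 0.13 (SE), with an adjusted p of 0.0776 in limma, so the window as a whole missed the threshold.

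The acetylation at Cyp27a1 lay almost wholly in a single merged region, chr1:74711878-74726307, which spans the lower gene end and runs from 1270 bp before it into the gene. This region was the only 1 of the 12 regions called in every library to pass the test, and its tags fell in old hepatocytes by 0.62 ± 0.11 log2 units (SE; adjusted p = 0.0274, limma with Benjamini-Hochberg adjustment over 12550 regions). Genome-wide, 1.07% of such regions were called, 67 higher and 67 lower in old (28 higher and 697 lower without centring). Old libraries held 444, 437, 474, 344 and 253 tags in it, against 769.5, 834, 731, 742 and 561 in young libraries. The call was lost without old replicate 1 (adjusted p = 0.0560), old 2 (0.0633), old 4 (0.0737), old 5 (0.0519), young 2 (0.0666) or young 3 (0.0659). It was also lost with IP efficiency as a covariate (adjusted p = 0.194), where the log2 difference was -0.60.

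At Cyp27a1 the called length separated the ages and the density did not. Called length in the window was 6568, 8610, 6522, 6971 and 5412 bp in old libraries 1 to 5 and 12773, 13113, 12343, 11074 and 11397 bp in young libraries 1 to 5. Old and young lengths did not overlap, either as deposited (3.83% of all windows, lower in old) or after centring (1.36%). The log2 difference of length was -0.68 ± 0.15 (SE; limma adjusted p = 0.121). Tags per kb averaged 57.4 ± 11.8 in old and 60.5 ± 6.66 in young hepatocytes (SD, n = 5 each), with overlapping libraries and a log2 difference of 0.09 ± 0.12 (SE; limma adjusted p = 0.850). The longest single region called there was 3940, 4050, 3651, 3488 and 3135 bp long in old libraries. In young libraries it was 8190, 11630, 11569, 4353 and 9660 bp long. The number of separate pieces in the window was 2 or 3 in old libraries and 2 to 5 in young libraries, with a mean of 2.8 in both. In 4 of 5 young libraries 1 of these pieces was at least 8190 bp long.

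The promoter of Cyp27a1 lay inside a called region in 10 of 10 libraries and is shown because it lies within the region that passed the test. It is the RefSeq sequence of GRCm38.p6, plus strand, chr1:74713285-74713584, with 250 bases before and 50 after the start site. None of the 6 motifs searched was found in it, so it has no capitals.
Cyp27a1: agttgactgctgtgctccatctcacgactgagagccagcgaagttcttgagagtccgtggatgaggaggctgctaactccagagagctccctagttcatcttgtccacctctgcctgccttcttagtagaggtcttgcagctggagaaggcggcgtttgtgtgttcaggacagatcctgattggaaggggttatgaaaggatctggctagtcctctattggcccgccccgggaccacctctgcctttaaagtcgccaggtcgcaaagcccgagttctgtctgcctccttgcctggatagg

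**Figure D2:**
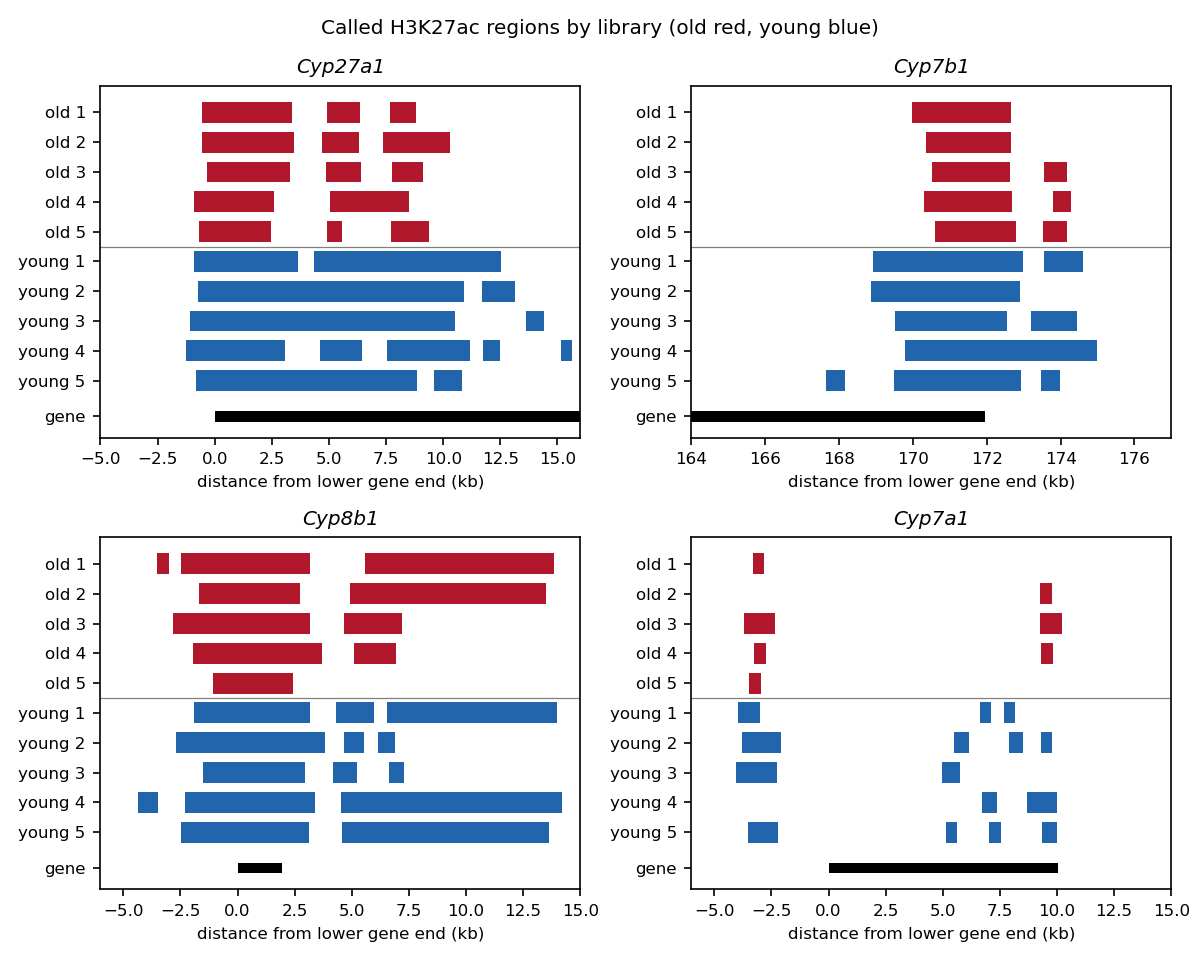
Called H3K27ac regions at Cyp27a1, Cyp7b1, Cyp8b1 and Cyp7a1, 1 row per library with old (red) above young (blue) and the gene span in black; the x axis is the distance in kb from the lower gene end. The Cyp7b1 panel shows only the stretch around the upper gene end, and the Cyp27a1 panel leaves out the upper part of the gene. Called regions outside these stretches are not drawn. Long regions appear at Cyp27a1 in young libraries 1, 2, 3 and 5, with shorter pieces beside them. Each old library shows 2 or 3 pieces, none longer than 4050 bp.

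Cyp7b1, the oxysterol hydroxylase that follows Cyp27a1 in the alternative route, showed the same order of the ages in deposited tags. Its long span is chr3:18071944-18243890. The window held 265, 221, 240, 203 and 207 scaled tags in old libraries 1 to 5, against 404, 381, 301, 626 and 419 in young libraries. The deposited tags did not overlap (9.23% of all windows, lower in old), although after centring they did, and the log2 difference was -0.53 ± 0.16 (SE; limma adjusted p = 0.197). Called length was 2292 to 3557 bp in old and 4257 to 12605 bp in young hepatocytes, without overlap (3.83% of all windows, lower in old). It stayed without overlap after centring (1.36%). The log2 difference of length was -1.04 ± 0.23 (SE; limma adjusted p = 0.112).

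Density at Cyp7b1 ran the other way, with 80.4 ± 11.1 tags per kb in old and 64.5 ± 11.6 in young hepatocytes (SD, n = 5 each). The log2 difference of tags per kb was 0.51 ± 0.14 (SE; limma adjusted p = 0.210), and after centring the old libraries lay above the young without overlap, as did 1.6% of all windows. The main region, chr3:18240811-18246931 at the upper gene end, was called in every library. It held 203 to 244 tags in old and 301 to 465 tags in young libraries, a log2 difference of -0.44 ± 0.12 (SE; limma adjusted p = 0.102). Within that region alone the log2 difference of tags per kb was 0.17 (limma adjusted p = 0.634). Of 9 further merged regions inside the Cyp7b1 span, 1 was called in any old library, and each was called in 1 to 3 young libraries. Young 4 and young 5 held 7 and 8 called regions in the window, against 3, 3 and 2 in young 1 to 3. Of all libraries, young 4 had the most called regions (30195) and young 5 the most tags (15544145). The part of library depth in these further calls was not tested.

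Cyp8b1, the sterol hydroxylase that directs synthesis to cholic acid, sits at chr9:121914356-121916305 and had the highest mean tags per kb of the 9 genes in both ages. Old libraries 1 to 5 held 1156, 877, 959, 413 and 317 scaled tags in the window, against 1458.5, 1229.5, 892, 1585 and 1267 in young libraries. Old replicates 2, 4 and 5 lay below every young library, and old 1 and old 3 lay within the young range. The log2 difference of window tags was -0.59 ± 0.27 (SE; limma adjusted p = 0.367). The window sum depends on how regions were joined, because in old 1, old 2, young 1, young 4 and young 5 a neighbouring region of 7462 to 9698 bp reaches into the window, most of its length lying outside.

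The region over the Cyp8b1 gene itself, chr9:121911550-121918181, avoids that neighbour. It held 694, 469, 893.5, 381 and 317 tags in old libraries and 922, 1193, 849, 942 and 798 in young libraries. Old replicate 3 reached the level of the young libraries, and the remaining old libraries were below all of them. The log2 difference was -0.57 ± 0.17 (SE; limma adjusted p = 0.130). Tags per kb in it averaged 107 ± 31.2 in old and 172 ± 19.0 in young hepatocytes (SD, n = 5 each), a log2 difference of -0.56 ± 0.14 (SE; limma adjusted p = 0.0988). The log2 difference of its length was -0.01 ± 0.12 (SE; limma adjusted p = 0.979).

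The Cyp8b1 promoter is shown because its start lies within that densest region, and it was covered by a called region in 10 of 10 libraries. It is from RefSeq GRCm38.p6, minus strand, chr9:121916256-121916555, again 250 bases before to 50 after the start site. Capitals mark the matches to the motifs searched, an HNF4A-type CAAAGTC whose first base is at -67 and a TATA box TATAAA at -31 from the start site.
Cyp8b1: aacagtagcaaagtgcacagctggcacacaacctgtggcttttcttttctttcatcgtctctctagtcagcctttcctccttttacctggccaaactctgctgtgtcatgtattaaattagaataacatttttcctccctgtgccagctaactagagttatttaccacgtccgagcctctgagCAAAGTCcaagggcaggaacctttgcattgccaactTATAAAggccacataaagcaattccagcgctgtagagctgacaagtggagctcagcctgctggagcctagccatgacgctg
The search covered both strands of the 4 members that the RefSeq promoter table held (Akr1d1, Cyp27a1, Cyp8b1 and Hsd3b7). Of 32851 promoters of that table, 4.44% hold CAAAGTC and 13.6% hold TATAAA. The other 4 motifs were an NR5A-type half-site AAGGTCA (4.72% of all promoters), a FOXA-type TGTTTAC (3.65%), the E-box CACGTG (7.15%) and the D-box TTATGTAA (0.938%), and none was found in these 4 windows. The letters of a motif are a description of the sequence and not evidence of binding.

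Cyp7a1, the entry enzyme of the classic route at chr4:6265612-6275632, had little H3K27ac in called regions. Its tags per kb stood at the 0.144th percentile of all windows. Old libraries 1 to 5 held 15.9, 10.2, 67.3, 27 and 12.7 scaled tags in the window, and young libraries 43, 92.2, 72.8, 45.3 and 51.2. Old libraries 1, 2, 4 and 5 were below every young library, and old replicate 3 was above 3 of the young. The log2 difference was -1.10 ± 0.46 (SE; limma adjusted p = 0.325), the largest in size among the 9 genes and the one with the widest error.

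These Cyp7a1 values rest on 8 to 53.5 unscaled tags per old library and 34.5 to 80 per young library. A called region lay inside the gene span in 3 of 5 old and 5 of 5 young libraries, with 3 such regions in old and 11 in young. No merged region of Cyp7a1 was called in all 10 libraries, so none was tested by itself. Called length was 500 bp, the size of a single peak, in old libraries 1, 2 and 5, with 2265 bp in old 3 and 1000 bp in old 4, against 1950 to 3507 bp in young libraries. The log2 difference of length was -1.54 ± 0.39 (SE; limma adjusted p = 0.175), and without old replicate 3 it was -1.92 (adjusted p = 0.0397). Tags per kb averaged 26.9 ± 4.37 in old and 23.3 ± 4.09 in young hepatocytes (SD, n = 5 each), a log2 difference of 0.39 ± 0.13 (SE; limma adjusted p = 0.328).

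Hsd3b7, the sterol dehydrogenase that works on the ring after the first hydroxylation, lies at chr7:127800609-127803802. The window held 423, 514, 1324, 307 and 189.8 scaled tags in old libraries 1 to 5 and 479.6, 505, 345, 423 and 239 in young libraries. Old replicate 3 stood above all others, old 2 lay just above the young range, and the other old libraries lay within or below it. The log2 difference was 0.54 ± 0.37 (SE; limma adjusted p = 0.529), and it was 0.18 without old replicate 3, 0.24 when tags were counted in proportion to the length inside the window and 0.08 with no extension of the span.

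The region over the Hsd3b7 promoter and gene, chr7:127800050-127804560, held 152 to 390 tags in old libraries and 199.8 to 441 tags in young libraries, and these ranges overlapped. Its log2 difference was 0.02 ± 0.21 (SE; limma adjusted p = 0.972).

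Akr1d1, the reductase that saturates the sterol ring, had overlapping values in the 2 ages. Its span is chr6:37529978-37574921. Old libraries 1 to 5 held 329, 187, 271, 169.6 and 105 scaled tags, against 199, 357, 197.5, 358 and 242 in young libraries. Old replicates 1 and 3 lay within the young range, and old 2, 4 and 5 lay below it. Relative to young, the log2 difference was -0.06 ± 0.21 (SE; limma adjusted p = 0.917). The region inside the gene, chr6:37536702-37542625, was the stronger of those called in every library and averaged 132 ± 47.0 tags in old and 159.5 ± 41.5 in young hepatocytes (SD, n = 5 each), a log2 difference of -0.03 ± 0.20 (SE). The region at the lower gene end held 28.6 to 115 tags in old and 46.4 to 150.3 tags in young libraries (log2 difference -0.35 ± 0.35, SE; limma adjusted p = 0.646).

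Amacr, the racemase that readies the side chain for peroxisomal shortening, had a lower mean of deposited tags in old hepatocytes. The gene is at chr15:10981756-10996624. Its window held 421, 378, 482, 407 and 255 scaled tags in old libraries 1 to 5 and 573, 705.5, 564, 576 and 419.5 in young libraries. Young replicate 5 alone lay within the range of the old libraries. On the log2 scale the difference was -0.21 ± 0.14 (SE; limma adjusted p = 0.510). Called length averaged 6166 ± 1322 bp in old and 6815 ± 435 bp in young hepatocytes (SD, n = 5 each; log2 difference -0.01 ± 0.13, SE). Tags per kb averaged 63.6 ± 9.20 in old and 83.4 ± 14.3 in young hepatocytes (SD, n = 5 each), a log2 difference of -0.20 ± 0.11 (SE; limma adjusted p = 0.557). Young replicate 5 was again the lowest of its group, at 58.8 tags per kb against 85.5 to 95.6 in the others. Nearly all the tags belonged to the region at the lower gene end, chr15:10980281-10987615, with a log2 difference of -0.26 ± 0.12 (SE; limma adjusted p = 0.292).

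Slc27a5, the ligase that activates bile acids with coenzyme A for conjugation, had the smallest log2 difference of tags among the 9 genes. It lies at chr7:12988346-12998192. Old libraries 1 to 5 held 713, 424.5, 558, 408 and 466 scaled tags, and young libraries 429, 734, 573.5, 951 and 720.2. The libraries overlapped over most of both ranges, with a log2 difference of -0.05 ± 0.17 (SE; limma adjusted p = 0.925). The region over its upper gene end, chr7:12994678-13004378, averaged 495 ± 119 tags in old and 616 ± 188 in young hepatocytes (SD, n = 5 each; log2 difference 0.01 ± 0.19, SE). Called length in the window was 6087 to 7982 bp in old and 9231 to 12931 bp in young hepatocytes. These deposited lengths did not overlap (3.83% of all windows, lower in old), but after centring they did (log2 difference -0.34 ± 0.13, SE; limma adjusted p = 0.389).

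Baat, the acyltransferase that joins the activated bile acid to taurine or glycine, lies at chr4:49489416-49507915 beside Acnat1. Old libraries 1 to 5 held 487, 338, 419, 319.7 and 293 scaled tags, and young libraries 1032, 773, 679.8, 1329.8 and 454. Old replicate 1 was above young replicate 5, and this pair was the only overlap between the ages. This gave a log2 difference of -0.79 ± 0.22 (SE; limma adjusted p = 0.178). Called length and density were both lower in old, with log2 differences of -0.41 ± 0.17 for called length and -0.38 ± 0.14 for tags per kb (SE; limma adjusted p = 0.474 and 0.344). Young replicate 4 had the largest window sum, of which 772 tags came from a region of 10581 bp with 8138 bp outside the window.

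The Baat region at the upper gene end, chr4:49501275-49511589, held 389, 276, 341, 244 and 252 tags in old libraries and 912, 662, 576, 558 and 378 in young libraries. After centring its libraries did not overlap, as at 2.96% of regions in that direction. In limma the log2 difference came to -0.71 ± 0.19 (SE; limma adjusted p = 0.0970). The region beyond the lower end, chr4:49475792-49487675, which also covers part of Acnat1, gave -0.56 ± 0.15 (SE; limma adjusted p = 0.0924). It too had no overlap after centring, with 226 to 499.8 tags in old and 522 to 817 tags in young libraries. Most of this merged region lay outside the Baat window. Its called pieces that overlapped the window held 41.3 to 97.7 tags in old libraries. In young libraries 1, 2, 3 and 5 those pieces held 75.9 to 119.5 tags, and in young 4 the long region held 772.

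Across the members, called length and density did not share a direction. Called length was lower in old for 8 of 9 genes with a median log2 difference of -0.34, where 47.4% of all windows were lower. It was lower for 6 of 9 with IP efficiency as a covariate, and for 5 of 9 without both libraries numbered 5. Tags per kb was lower for 4 and higher for 5 with a median of 0.07, where 47.1% of all windows were lower. No member was called by limma in length (0.0103% of all windows called) or in tags per kb (0.0928% of all windows called). By unadjusted limma p under 0.05, 5 members had shorter regions in old (Cyp7a1, Cyp27a1, Cyp7b1, Slc27a5 and Baat; 5.38% of all windows). By the same rule 2 were lower in tags per kb (Cyp8b1 and Baat; 4.39%) and 2 were higher (Cyp7a1 and Cyp7b1; 6.21%). At Cyp7a1 the called length was 500 bp, the size of a single peak, in old libraries 1, 2 and 5. In the main Cyp7b1 region the log2 difference of tags per kb was 0.17 (limma adjusted p = 0.634).

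Other processing added member calls. DESeq2 on the unscaled tags, rounded to whole numbers, called Cyp27a1 (log2 difference -0.59, adjusted p = 0.00142), Baat (-0.85, 0.0168) and Cyp7b1 (-0.55, 0.0486), all lower in old, where it called 1.58% of all windows lower. Without centring, limma called Cyp27a1 (-0.93, adjusted p = 0.0467), where 0.876% of all windows were called lower. The quasi-likelihood test of edgeR called none of the 9, with Cyp27a1 nearest at an adjusted p of 0.0566 and 0.206% of all windows called lower.

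**Figure D3:**
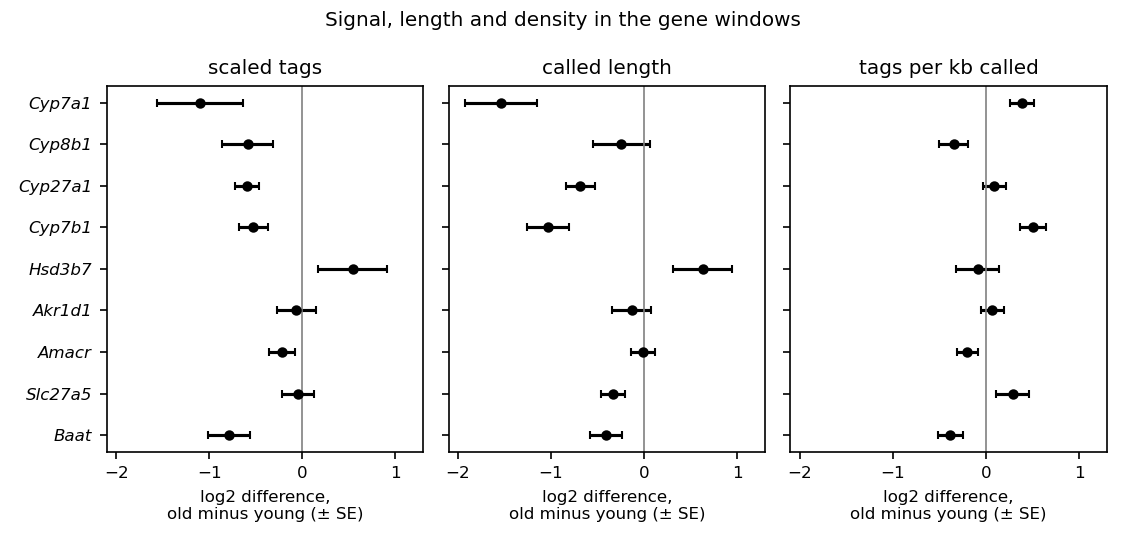
Log2 differences, old minus young, of scaled tags, called length and tags per kb in the 9 gene windows, relative to the median window; points are limma estimates and bars are 1 SE (n = 5 libraries per age). Cyp27a1 and Cyp7b1 lie left of 0 in tags and length but at 0.09 and 0.51 in tags per kb, while Cyp8b1 and Baat lie left of 0 in tags per kb at -0.35 and -0.38.

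Per kb of called region, the order of the genes in old hepatocytes ran from Cyp8b1 (81.3 tags per kb) and Cyp7b1 (80.4) through Slc27a5 (70.1), Hsd3b7 (68.6), Amacr (63.6) and Cyp27a1 (57.4) to Baat (43.9), Akr1d1 (32.01) and Cyp7a1 (26.9). Neighbours in this order differed by less than the larger SD of the pair down to Cyp27a1. The steps from Cyp27a1 to Baat, from Baat to Akr1d1 and from Akr1d1 to Cyp7a1 exceeded it. In young hepatocytes Cyp8b1 (116 tags per kb) also came first, and Akr1d1 (34.8) and Cyp7a1 (23.3) also came last, while Cyp7b1 stood at position 6 with 64.5 tags per kb, against position 2 in old. In the main Cyp7b1 region alone, tags per kb averaged 83.8 in old and 83.3 in young hepatocytes.

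The authors' ratio over input had to reach 4-fold for a region to be called, so enrichment itself was given in advance. The size of the ratio is described here for the region with the most tags in each gene window, in each library. At Baat this region had 11.2-fold to 28.2-fold in old and 17.5-fold to 74.4-fold in young libraries. At Cyp27a1 it was 9.88-fold to 14.6-fold in old and 9.43-fold to 21.7-fold in young libraries. At Cyp7a1 it was 4.42-fold to 8.45-fold in old libraries and 6.25-fold to 152-fold in young libraries. That 152-fold value came from young replicate 3, where the input at the region was 0.3 tags, on the scale of the unscaled tags of that library. Regions with fewer tags could have a higher ratio over a small input, such as 29.0-fold in old replicate 3 at Cyp7a1, and at Baat 102-fold in old replicate 5 and 167-fold in young replicate 1.

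Other genes of the pathway did not show a common direction. Of 27 other enzymes and carriers of bile acid synthesis, 24 had a region in every library, 14 of them lower and 10 higher in old, with a median log2 difference of -0.05. None was called by limma, edgeR or DESeq2, and by unadjusted limma p under 0.05 there was 1 lower and 1 higher (7.12% and 6.58% of all windows). Lowest were Por, the reductase that feeds electrons to microsomal P450 enzymes (-0.60), Cyp39a1, an oxysterol hydroxylase (-0.55), and Cyp2a12 (-0.39). Highest were Cyp3a11, a bile acid and drug hydroxylase (1.27, adjusted p = 0.215), the sulfotransferase gene Sult2a8 (0.67) and the cholesterol carrier gene Stard3 (0.66). At Cyp3a11 the window held 151 ± 24.5 tags in old and 91.2 ± 48.8 in young hepatocytes (SD, n = 5 each).

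Of 32 regulators, all had a region in every library, 22 were lower and 10 higher in old, and the median log2 difference was -0.07. None was called by limma or edgeR, 6 were lower and 0 higher by unadjusted limma p under 0.05 (7.12% and 6.58% of all windows), and DESeq2 called 2, Tef and Rxra, both lower (1.58% of all windows). Lowest were Tef, a D-box factor (-0.70), Onecut1 (-0.64) and Nr1h4, the bile acid receptor (-0.61, adjusted p = 0.333). Highest were Nr0b2, which encodes the repressor SHP (0.67, adjusted p = 0.470), the oxysterol receptor Nr1h2 (0.55) and Sirt1 (0.40). Nr1h4 had 735 ± 262 tags in old and 1416 ± 459 in young hepatocytes (SD, n = 5 each), and Nr0b2 had 593 ± 224 in old and 493 ± 217 in young. Of the zonal markers, 4 of 5 tested pericentral genes were lower (median -0.04), and 2 of 6 periportal genes were lower and 4 higher (median 0.06). None of these was called by limma, edgeR or DESeq2, and 2 periportal genes were lower by unadjusted limma p under 0.05, as were 7.12% of all windows.

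**Figure D4:**
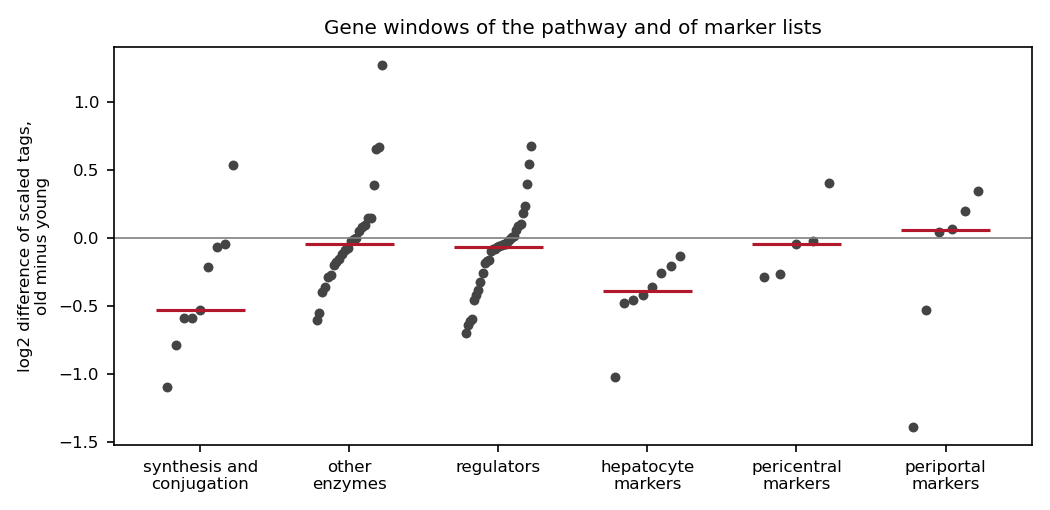
Log2 difference of scaled tags, old minus young, for each tested window of the 9 synthesis and conjugation genes, other pathway enzymes, regulators and marker lists; each point is a gene and red bars are list medians. The 9 genes have a median of -0.53, the hepatocyte markers -0.39, and the other enzymes and regulators -0.05 and -0.07.

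Across the 10 libraries, the mean centred log2 tags of the 9 members was 0.15, -0.25, 0.44, -0.10 and -0.31 in old libraries 1 to 5 and 0.55, 0.29, 0.35, 0.35 and 0.24 in young libraries. Old replicate 3 lay within the young values and the other old libraries lay below them all. Among 9686 windows sharing no region with a member, the patterns most like this mean were those of Il1rap (Pearson r = 0.94 over 10 libraries), Cyb561a3 (0.94), Mrpl19 (0.93), and Mrpl16 and Stx3 (0.92 each, with shared regions). These values describe a search over all windows, and the libraries of both ages enter each of them. Within the old libraries alone, r was 0.97 for Il1rap and 0.95 for each of the others. Within the young libraries it was -0.03 for Il1rap, 0.69 for Cyb561a3, 0.58 for Mrpl19, and 0.99 for Mrpl16 and Stx3.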

How the data were processed

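The authors called H3K27ac regions with HOMER in histone style, separately for each of the 10 libraries against its own input. Per the file headers, regions were joined from 500 bp peaks spaced by 1000 bp or more, and needed 4-fold more tags than input and than the surrounding 10000 bp at a Poisson p-value of 1e-04. Per the submitters' processing notes, coordinates refer to mm10. Not given in the sources used here were the aligner and HOMER's version. Each region's signal was its tags, brought by the authors to 10000000 in each library, and the input signal was scaled by the authors to the matched library. Unscaled tags, in steps of 0.5, were deposited without normalization and treated as estimated counts. The region length in bp, the fold over input (a ratio), the p-value against input and the score were deposited by the authors, and the score and p-value were not used.

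Gene windows came from RefSeq gene spans of GRCm38.p6, the assembly that mm10 corresponds to. Tags (log2 with a pseudocount of 1), called length and tags per kb were fitted with limma 3.58.1 (R 4.3.3, trended prior) over all 9703 windows with a region in all 10 libraries, and tags likewise over 12550 regions merged at 1 bp overlap, each library centred on its median, with Benjamini-Hochberg adjustment at 0.05. DESeq2 1.42.0 and edgeR 4.0.16 on rounded unscaled tags, and the settings in the closing part, were alternatives. The fit was tested on simulated data. The labels do not say that equal replicate numbers share a source, so no block was used in the main fit. Deviations of same-numbered libraries from their age means correlated at r of -0.06 to 0.18, which cannot show whether the samples were paired. Members, lists and tests were chosen with earlier results of these data known. Named were all 9 members, for each the region called in every library with the most tags and any that passed, and per list the 3 largest differences in each direction and any window that passed; other regions of Hsd3b7, Baat and Akr1d1 were named after their values were seen. As an exception to this rule, 1 region it would name is not reported here. The search for like patterns named the 5 windows with the highest correlation. A region list holds only what was called, so absence from it is not absence of acetylation, and a summed value depends on how regions were stitched.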

Additional observations from a re-analysis of the deposited data

Results flagged for a closer look

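In 4 of 54 groups of 5 libraries (9 genes, 3 measures and 2 ages) the highest or lowest library stood apart from the rest of its own group, by a gap of more than 0.71 of the group's range, and chance flags about 1 in 20 groups. The Hsd3b7 window of old replicate 3 held 1323.6 scaled tags, against 189.8 to 513.9 in the other old libraries. The called length at Cyp7a1 was 2265 bp in old replicate 3, against 500 to 1000 bp in the other old libraries. At Baat the called length was 19374 bp in young replicate 4, against 10278 to 12371 bp in the other young libraries. Amacr had 58.8 tags per kb in young replicate 5, against 85.5 to 95.6 in the other young libraries.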

How the results depend on the processing

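The members' directions in tags held in all alternatives run, except those of Slc27a5 and Akr1d1. Of 955 repeats of 51 values, 886 kept direction and side of the threshold, 9 lost the call, 11 gained one (10 lower and 1 higher in old) and 49 turned sign, none of these past the threshold. The cause was not tested for any of these changes. At Cyp7a1, 8 to 53.5 unscaled tags per old and 34.5 to 80 per young library limit the precision.

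Counts of called windows in tags (21) became 87 without centring, 0 with IP efficiency as a covariate, 4 with a replicate block, 42 with 20 kb extension, 8 at 8-fold over input, 56 with cyclic loess, 1 with a region in at least 5 libraries, 32 with tags in proportion to length, 47 in edgeR, 298 in DESeq2 and 8 without both libraries numbered 5 (chosen after seeing the data). Leaving out single libraries gave 2 (old 4) to 68 (young 1), with 11 without old 1, old 2 or young 3, 12 without old 5, 9 without young 4 and 6 without young 5. In called length (1), the count was 0 without centring, with IP efficiency, with no extension or without both libraries 5, 6 with a replicate block, 9 with 20 kb, and 0 to 7 with a library left out. In tags per kb (9), it was 5 without centring, 1 with IP efficiency, 5 with a replicate block, 3 with 20 kb, 0 at 8-fold, 2 without both libraries 5, and 2 (old 4, old 5) to 11 with a library left out. For merged regions (134), it was 725 without centring, 0 with IP efficiency, 74 with a replicate block, 57 with a region in at least 5 libraries, 42 at 8-fold, 11 without both libraries 5, and 30 (old 4) to 255 (young 1) with each library left out, every one moving it by over 1.5 times. Called members (0) became 1 without centring and 3 in DESeq2, and 0 in every run with a library left out. The wider pathway (0) became 2 in DESeq2, Tef and Rxra, both lower in old. The replicate block left the members' calls as they were.

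The Cyp27a1 region lost its call also with regions required in at least 5 libraries (log2 difference -0.76, adjusted p = 0.0918, limma) and without both libraries 5 (-0.60, adjusted p = 0.0791, limma). Without centring, limma also called the main regions of Cyp8b1 (adjusted p = 0.0486) and Cyp7b1 (0.0302), each lower in old. It likewise called the Baat region at the upper gene end (0.0303) and the Baat region towards Acnat1 (0.0382), both lower in old. In that setting 697 of all 12550 merged regions were called lower in old and 28 higher.

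Values that turned sign, as log2 differences, were these. With IP efficiency, window tags of Akr1d1 became 0.2758, length of Cyp8b1 0.0045 and of Akr1d1 0.1925, region tags of Slc27a5 -0.0126, and those of Akr1d1 0.0812 at the gene end and 0.1916 inside the gene. With no extension, Slc27a5 tags became 0.0623, Cyp8b1 length 0.0394, Amacr length 0.0016 and Hsd3b7 tags per kb 0.0854; the last was 0.0489 with 20 kb. Without centring, tags per kb became -0.0905 for Cyp27a1 and -0.1129 for Akr1d1, and region tags -0.2862 for Slc27a5 and -0.2760 for the Hsd3b7 promoter. Without both libraries 5, length became 0.0368 for Cyp8b1, 0.0520 for Akr1d1 and 0.0269 for Amacr, and tags of Akr1d1 0.0907 in the window and 0.0461 in the region inside the gene. Other turns were Amacr length at 8-fold (0.0381), and region tags with at least 5 libraries for Slc27a5 (-0.1312) and Hsd3b7 (-0.1210) and with a pseudocount of 10 for Slc27a5 (-0.0005). With each library left out, values crossed 0 for window tags of Slc27a5 (-0.1413 to 0.0556) and Akr1d1 (-0.2173 to 0.0804), length of Akr1d1 (-0.2795 to 0.0368) and Amacr (-0.0669 to 0.0605), tags per kb of Akr1d1 (-0.0022 to 0.1205) and Hsd3b7 (-0.2394 to 0.0960), and region tags of Slc27a5 (-0.1217 to 0.1139), Akr1d1 inside the gene (-0.1233 to 0.0968) and Hsd3b7 (-0.1033 to 0.1672).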
